A study of Mus musculus with 21 samples.

Results

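The immunity-related GTPases (IRGs) are interferon-inducible proteins of the dynamin superfamily, and 7 of them were followed here by their symbols, namely Irgm1, Irgm2, Igtp, Iigp1, Tgtp1, Tgtp2 and Ifi47. All 7 had a row in the deposited table of read counts, which holds 48474 rows in all. The table covers bulk RNAseq of the neocortex of 11 wild-type (labelled WT) and 10 rNLS8 (labelled TG) mice. rNLS8 mice carry a tetracycline-controlled transactivator under the promoter of the neurofilament heavy chain gene NEFH, which is active mainly in neurons, together with a responsive transgene for human TDP-43 without its nuclear localization signal (TDP-43ΔNLS), whereas their wild-type littermates were monogenic. Every mouse of both genotypes, aged 17 to 19 weeks, had been injected once into the cerebral ventricles with 350 µg of non-targeting antisense oligonucleotide in 10 µL. Both genotypes were fed doxycycline at 200 mg/kg, which keeps the transgene off, until 2 weeks after that injection, and tissue was taken 3 weeks after its withdrawal. The mice came from independent cohorts, batch A with 4 wild-type and 3 rNLS8 mice and batch B with 7 wild-type and 7 rNLS8 mice. No group without the oligonucleotide and no second rNLS8 line was analysed here, and no sex is stated for single mice in the sources used here. The reporting summary of the study says of naive rNLS8 mice that the sexes were analysed together.

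IRG proteins defend cells against pathogens that live in vacuoles. The effector members, whose nucleotide-binding loop holds the common GKS motif (Iigp1, also called Irga6, the near-identical Tgtp1 and Tgtp2, also called Irgb6, and Ifi47, also called Irgd), load onto the membrane of the vacuole and break it. The regulators with a GMS motif in the same loop (Irgm1, Irgm2 and Igtp, the last also called Irgm3) sit on the cell's own membranes and keep the effectors inactive there, and Irgm1 has also been tied to autophagy and mitochondria. Most mouse IRG genes are induced by interferon gamma through the gamma-activated sequence (GAS) and by type I interferon through the interferon-stimulated response element (ISRE). In the brain they are known for the control of Toxoplasma.

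Before the values, the promoters show what several members have in common in sequence. RefSeq promoters of GRCm38.p6, which run from 250 bases before to 50 bases after the start of a transcript, were at hand for Irgm1, Irgm2, Igtp, Tgtp1, Tgtp2 and Ifi47. They were searched on both strands for the core of the ISRE, spelled GAAANNGAAA, and for the GAS, spelled TTCNNNGAA. The ISRE core was present in Irgm1, Irgm2, Igtp, Tgtp1 and Tgtp2, compared with 3.44% of all 32851 promoters of the same length. The GAS was present in Irgm2, Igtp, Tgtp1 and Tgtp2, compared with 8.30% of all promoters, and both motifs together were found in 149 promoters or 0.454%. In these 4 members the GAS lay directly upstream of the ISRE core, and Irgm1 had 2 overlapping ISRE cores and no GAS. These letters did not occur in the window of Ifi47. The windows of 60 bases around the motifs are shown 5′ to 3′ on the strand of each gene because they hold the shared arrangement, with the letters of a motif in capitals. The window of Irgm1 lies at chr11:48871423-48871482 on the minus strand, that of Irgm2 at chr11:58214875-58214934 on the plus strand, that of Igtp at chr11:58199484-58199543 on the plus strand, that of Tgtp1 at chr11:48992302-48992361 on the minus strand and that of Tgtp2 at chr11:49064261-49064320 on the minus strand.
Irgm1: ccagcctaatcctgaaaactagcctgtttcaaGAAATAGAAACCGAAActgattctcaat
Irgm2: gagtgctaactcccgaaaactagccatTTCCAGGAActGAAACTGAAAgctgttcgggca
Igtp: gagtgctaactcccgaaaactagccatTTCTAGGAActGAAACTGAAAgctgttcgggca
Tgtp1: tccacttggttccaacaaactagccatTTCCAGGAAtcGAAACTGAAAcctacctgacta
Tgtp2: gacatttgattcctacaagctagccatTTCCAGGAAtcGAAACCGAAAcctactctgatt
The windows of Irgm2 and Igtp were identical at 59 of 60 positions and those of Tgtp1 and Tgtp2 at 47 of 60, while Irgm1 matched the others at 29 to 34 positions. A match is a description of the sequence and was not tested as a binding site.

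The libraries held 20700912 to 22263809 counted reads each and were scaled by TMM in edgeR. Genotypes were compared by the quasi-likelihood test of edgeR with batch as covariate, over 18248 genes with Benjamini-Hochberg adjustment over all of them and a threshold of 0.05. All 7 members were tested, and all 7 were higher in rNLS8 mice, where 23.0% of all genes tested were higher and 21.7% were lower. The row of the mouse gene Tardbp, the endogenous counterpart of the transgene, was higher as well, by 0.62 on the log2 scale (standard error, SE, 0.071, edgeR adjusted p = 1.50e-07), and whether reads of the human transgene were counted there is not given in the sources used here. Because these are bulk samples, a change in the number of cells of a type and a change in the RNA per cell cannot be told apart.

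The GMS regulators were the members with the highest counts. Irgm1, which guards the cell's own membranes, had between 149 and 216 normalized counts in wild-type mice with a median of 176, and between 215 and 870 in rNLS8 mice with a median of 428. Its mean over the 10 rNLS8 mice was 453 ± 168 (SD), against 183 ± 21 (SD) over the 11 wild-type mice. Only the lowest rNLS8 mouse reached the range of the wild-type mice, and the other 9 of the 10 lay above all wild-type mice. The log2 fold change of Irgm1 was 1.31 (SE 0.13, edgeR adjusted p = 1.33e-08), which is 2.48-fold. Irgm2 had 87.7 to 140 normalized counts in wild-type mice with a median of 115, and 146 to 423 in rNLS8 mice with a median of 235. The genotypes did not overlap, which 3.85% of all genes tested showed in this direction, and Irgm2 had a log2 fold change of 1.13 (SE 0.12, edgeR adjusted p = 2.41e-08). Igtp, the third regulator, had 85.1 to 126 normalized counts in wild-type mice with a median of 112, and 128 to 429 in rNLS8 mice with a median of 266. Here the genotypes were separated by a narrow gap, since the lowest rNLS8 mouse at 128 was just above the highest wild-type mouse at 126. The log2 fold change of Igtp was 1.33 (SE 0.13, edgeR adjusted p = 1.73e-08).

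Among the GKS effectors, Iigp1 showed the largest fold change of the 7 members. It had 22.4 to 49.0 normalized counts in wild-type mice with a median of 35.0, and 72.7 to 223 in rNLS8 mice with a median of 112. The mean over the 10 rNLS8 mice was 122 ± 46.8 (SD), against 35.5 ± 8.70 (SD) over the 11 wild-type mice. Every rNLS8 mouse was above every wild-type mouse, and the log2 fold change of Iigp1 was 1.80 (SE 0.12, edgeR adjusted p = 2.16e-11), or 3.49-fold. Tgtp1 had 39.2 to 94.9 normalized counts in wild-type mice with a median of 48.4, and 54.9 to 208 in rNLS8 mice with a median of 111. The genotypes overlapped, since 8 of the 10 rNLS8 mice exceeded the highest wild-type mouse, and Tgtp1 was higher by 1.17 on the log2 scale (SE 0.15, edgeR adjusted p = 8.12e-07). Its neighbour Tgtp2 had 37.1 to 83.2 normalized counts in wild-type mice with a median of 63.7, and 62.7 to 217 in rNLS8 mice with a median of 118. For Tgtp2, 9 of the 10 rNLS8 mice exceeded the highest wild-type mouse, and the difference was 1.15 on the log2 scale (SE 0.14, edgeR adjusted p = 4.10e-07). Ifi47 had the fewest counts, with 13.4 to 43.8 normalized counts and a median of 27.8 in wild-type mice against 34.3 to 107 with a median of 47.4 in rNLS8 mice. For Ifi47, 6 of the 10 rNLS8 mice exceeded the highest wild-type mouse, and the difference was 1.0 on the log2 scale (SE 0.15, edgeR adjusted p = 6.71e-06).

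**Figure D1:**
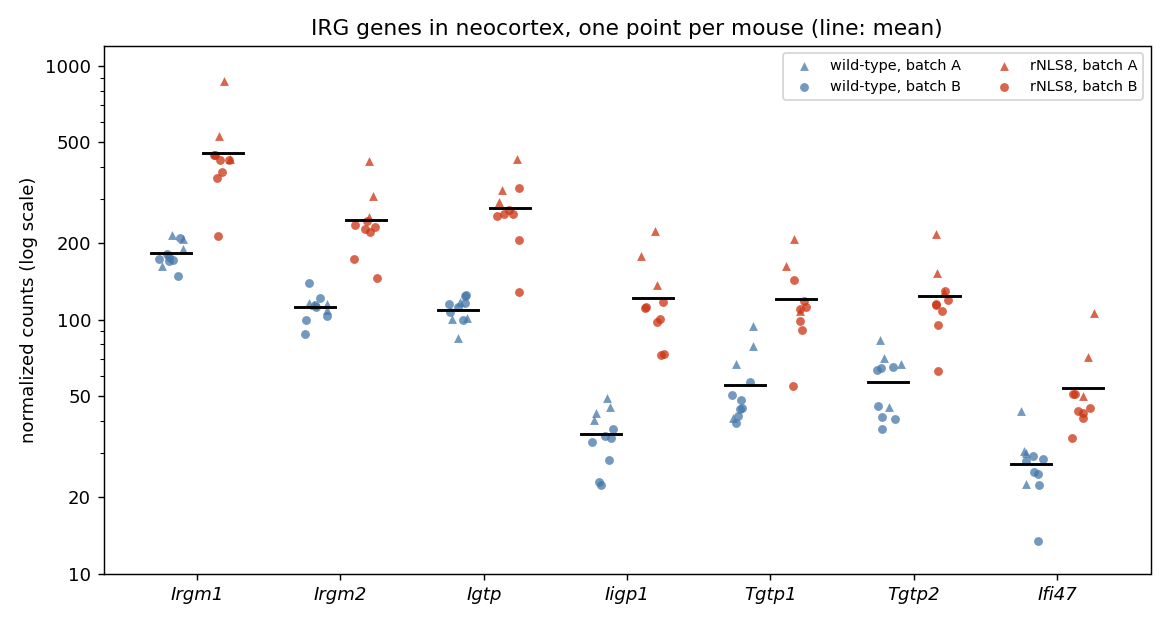
Normalized counts (log axis) of the 7 IRG genes in each wild-type (blue) and rNLS8 (red) mouse, with triangles for batch A, circles for batch B and black lines for the mean of a genotype. The genotypes do not overlap for Irgm2, Igtp and Iigp1, as for 3.85% of all genes tested, and the highest rNLS8 mouse of every gene is from batch A.

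The spread among mice was described by the coefficient of variation, beside the value that counting error alone gives at the mean count, with no test. For Irgm1, Irgm2 and Igtp it was 11.5%, 11.7% and 11.1% in wild-type mice, where counting error gives 7.53%, 9.59% and 9.71%. In rNLS8 mice it was 36.9%, 30.7% and 28.7% for these genes, where counting error gives 4.61%, 6.24% and 5.90%. Part of the spread among rNLS8 mice came with a single mouse. Without rNLS8 replicate 8 the values were 21.2%, 20.4% and 23.9%, with the smallest change for Igtp. Among the effectors, the coefficient was 24.5% in wild-type and 38.2% in rNLS8 mice for Iigp1 and 27.3% and 39.2% for Ifi47, and without rNLS8 replicate 8 these rNLS8 values were 29.2% and 21.8%. Within batch B alone it was 10.2% in wild-type and 21.3% in rNLS8 mice for Irgm1, 15.04% and 17.7% for Irgm2, 7.98% and 25.8% for Igtp, 19.7% and 18.6% for Iigp1, 12.6% and 26.4% for Tgtp1, 24.8% and 20.7% for Tgtp2, and 22.1% and 13.1% for Ifi47. For Tgtp1 the coefficients over both batches were 32.5% in wild-type and 34.9% in rNLS8 mice.

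Levels between genes were compared per length, as CPM (counts scaled to a common library size) per kb of exonic length in GENCODE vM21. Igtp was highest in wild-type mice with 2.54 ± 0.282 CPM per kb (SD, n = 11), followed by Irgm1 with 1.47 ± 0.169 and Irgm2 with 1.43 ± 0.167, whose ranges overlapped almost entirely. Tgtp2 followed with 0.907 ± 0.243 CPM per kb, Tgtp1 with 0.808 ± 0.262 and Ifi47 with 0.512 ± 0.140, and Iigp1 was lowest with 0.286 ± 0.0700. In rNLS8 mice (n = 10) the order was Igtp with 6.39 ± 1.84 CPM per kb, Irgm1 with 3.66 ± 1.35, Irgm2 with 3.14 ± 0.962, Tgtp2 with 1.98 ± 0.641, Tgtp1 with 1.77 ± 0.617, Ifi47 with 1.02 ± 0.399 and Iigp1 with 0.984 ± 0.376. The order of the 7 genes was the same in both genotypes, for the first row of each gene. Further rows of the same symbols, described with the shared sequences, were not added here, and adding them would raise some genes and not Tgtp1 and Iigp1, so that the order depends on this choice. Within it, Irgm1 and Irgm2, Tgtp2 and Tgtp1, and in rNLS8 mice also Ifi47 and Iigp1 differed by less than their SDs. By the first rows, the regulators were above the effectors on this scale of levels in both genotypes.

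In each batch alone, all 7 members were again higher at an adjusted p under 0.05, against 6.99% of all genes tested in batch A and 19.3% in batch B. The log2 fold changes in batch A were 1.68 for Irgm1, 1.55 for Irgm2, 1.80 for Igtp, 2.03 for Iigp1, 1.20 for Tgtp1, 1.34 for Tgtp2 and 1.29 for Ifi47. In batch B they were 1.13 for Irgm1, 0.92 for Irgm2, 1.09 for Igtp, 1.67 for Iigp1, 1.15 for Tgtp1, 1.05 for Tgtp2 and 0.84 for Ifi47. The point estimate was larger in batch A for all 7, but its size depended on single mice of batch A, rNLS8 replicates 8 and 10. Without replicate 8, the interaction (batch A minus batch B) moved from 0.52 to 0.17 for Irgm1, from 0.60 to 0.37 for Irgm2, from 0.33 to 0.14 for Iigp1, from 0.26 to 0.019 for Tgtp2, from 0.41 to 0.085 for Ifi47, from 0.020 to -0.22 for Tgtp1, and from 0.68 to 0.50 for Igtp. Without replicate 10 it rose instead, to 0.72 for Irgm1, 0.75 for Irgm2, 0.79 for Igtp, 0.49 for Iigp1, 0.23 for Tgtp1, 0.42 for Tgtp2 and 0.64 for Ifi47, with edgeR adjusted p from 0.219 for Irgm2 to 0.796 for Tgtp1. For Tgtp1, whose value is near 0, it was also below 0 without rNLS8 replicate 1 (-0.089) or 2 (-0.011) and was 0.11 without replicate 4. Without replicate 1, it was 0.17 for Tgtp2. Wild-type mice were not left out in turn for this interaction. The interaction of genotype and batch passed the threshold for none of the 18248 genes by edgeR's quasi-likelihood test, with 1030 genes at an unadjusted p under 0.05. Irgm2 with an interaction of 0.60 (SE 0.22) and Igtp with 0.68 (SE 0.25) were among these, with an adjusted p of 0.853 for both. In batch A, all 3 rNLS8 mice were above all 4 wild-type mice for each of the 7 genes, and in batch B the genotypes did not overlap for 5 of 7, the exceptions being Tgtp1 and Tgtp2. Over all 18248 genes tested, 13.1% had every rNLS8 mouse above every wild-type mouse in batch A and 8.34% in batch B.

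**Figure D2:**
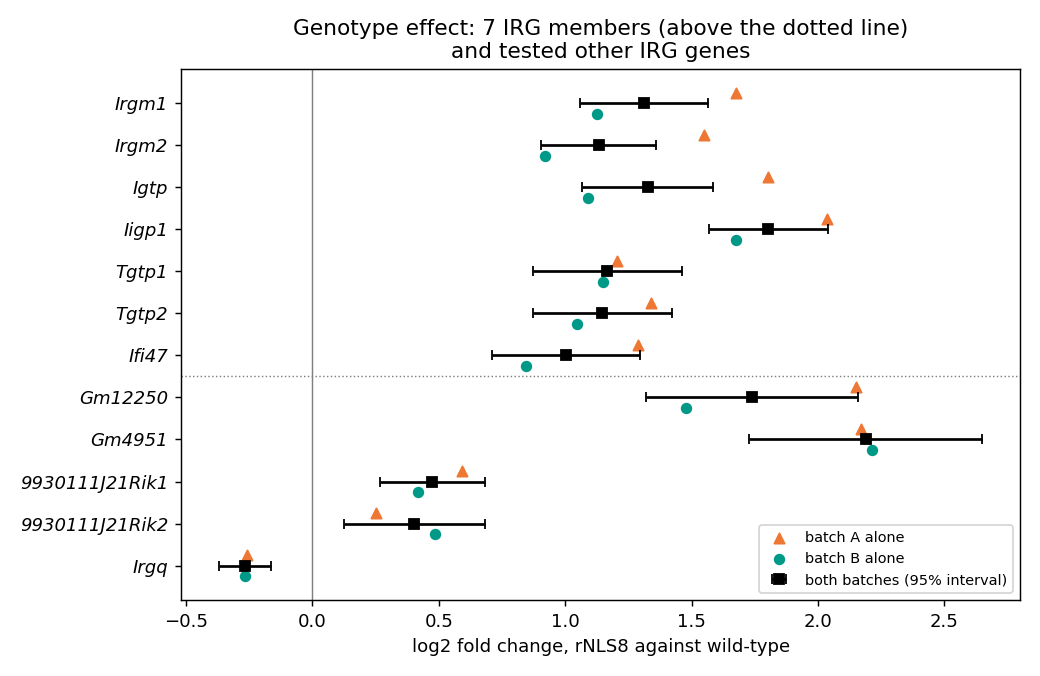
Log2 fold change (rNLS8 against wild-type) of the 7 IRG genes, above the dotted line, and of 5 other tested IRG genes, with squares and 95% intervals for both batches together, triangles for batch A alone and circles for batch B alone. The squares of all 7 members lie between 1.0 and 1.80, and Irgq is on the other side of 0.

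The members shared the highest and mostly the lowest of the rNLS8 mice, with other mice in varying order. rNLS8 replicate 8 of batch A was the highest rNLS8 mouse for all 7 genes, and rNLS8 replicate 1 of batch B was the lowest for 6 of 7, the exception being Iigp1. Relative to the mean of the wild-type mice, replicate 8 was higher by 2.25 (log2 CPM) for Irgm1 and by 2.62 for Iigp1, while replicate 1 was higher by 0.24 for Irgm1 and by 1.05 for Iigp1. Replicate 9, also of batch A, ranked next to replicate 8 in the mean over the 7 genes. Replicate 8 also had the highest summed level of 12 microglia markers among rNLS8 mice, 795 CPM against a median of 594. Its sum of 9 markers of peripheral macrophages and monocytes was also the highest, 70.2 CPM against a median of 26.5. Most of the latter sum in replicate 8 came from Lyz2, with 1113 normalized counts against a mean of 357 over all rNLS8 mice. It is therefore not a level shared by all 9 markers. Replicate 1 had the lowest sums of both lists, 505 and 17.6 CPM. The part of microglia and of peripheral macrophages and monocytes in the spread of the members was not tested. Without rNLS8 replicates 1, 8 and 9, an alternative chosen after the data were seen, all 7 members were still higher, with log2 fold changes of 1.22 for Irgm1, 1.04 for Irgm2, 1.27 for Igtp, 1.71 for Iigp1, 1.14 for Tgtp1, 1.11 for Tgtp2 and 0.85 for Ifi47.

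**Figure D3:**
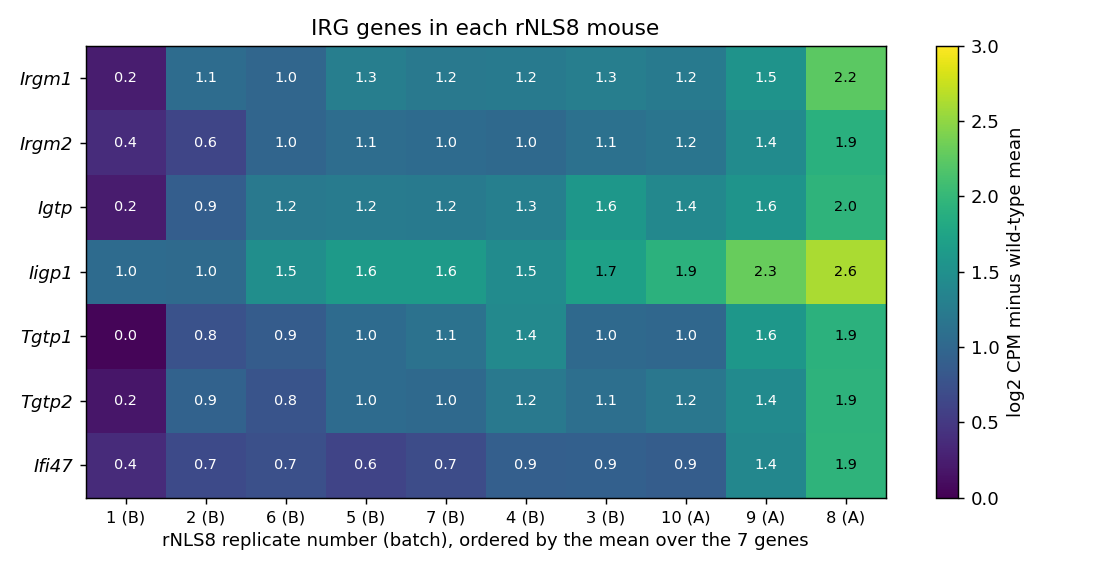
Log2 CPM of each IRG gene in each of the 10 rNLS8 mice minus the mean of the wild-type mice (colour and printed value), with mice ordered by their mean over the 7 genes and the batch in parentheses. Replicate 1 is lowest and replicate 8 highest, and Iigp1 is the top gene of most mice, for example 2.62 in replicate 8.

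Members moved together across rNLS8 mice. After removal of batch means, all 21 pairs of members were correlated over the 10 rNLS8 mice at a Benjamini-Hochberg adjusted p under 0.05 in 100000 permutations. Pearson's r was between 0.729 for Igtp with Ifi47 and 0.978 for Irgm1 with Tgtp2, with a median of 0.874, where 4.02% of all pairs among the 18248 genes tested had an r at or above that lowest value, and Spearman's rho was between 0.673 and 0.952 with a median of 0.842. For Irgm1 with Tgtp2, r had a permutation p of 2.00e-05 (adjusted p = 0.000210), and rho was 0.939 (permutation p = 0.000190, adjusted p = 0.000997). For Igtp with Ifi47, r had a permutation p of 0.0209 (adjusted p = 0.0209), and rho was 0.842 (permutation p = 0.00335, adjusted p = 0.00695). For each pair separately, the 2 mice farthest from the median of the first gene of the pair were then left out. With those mice left out, r was between 0.563 and 0.943 with a median of 0.750. Over the 11 wild-type mice, only Tgtp1 with Tgtp2 passed by Pearson's r (0.770, permutation p = 0.00209, adjusted p = 0.0439), with a rho of 0.791 (permutation p = 0.00562, adjusted p = 0.0590), and these genes share most of their sequence. The median r of all 21 pairs was 0.371 in wild-type mice, in which 1.68% of all gene pairs had an r of at least 0.729. The difference between the genotypes in these correlations was not tested, and the lower counts of wild-type mice leave more counting error.

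To ask whether the members rose by the same factor, the log2 ratio of each pair of members was compared between genotypes by an exact permutation test within batch, two-sided, for 21 pairs with Benjamini-Hochberg adjustment. The comparison was chosen after the data were seen. Iigp1 rose more than each of the other 6 members. Its effect was larger by 0.47 than that of Irgm1 (adjusted p = 0.000758, exact permutation), by 0.63 than that of Irgm2 (adjusted p = 0.000175, from the smallest p these permutations can give), by 0.46 than that of Igtp (adjusted p = 0.000262), by 0.61 than that of Tgtp1 (adjusted p = 0.00233), by 0.61 than that of Tgtp2 (adjusted p = 0.00147) and by 0.78 than that of Ifi47 (adjusted p = 0.000787, all on the log2 scale). The ratio of Iigp1 to Irgm2, as a log2 ratio of Irgm2 over Iigp1, was 1.03 ± 0.143 (SD) over the 10 rNLS8 mice, against 1.64 ± 0.290 (SD) over the 11 wild-type mice. Among the 15 pairs without Iigp1, only Irgm1 over Ifi47 passed, by 0.31 (adjusted p = 0.0476, exact permutation), and it did not pass with a prior count of 0.5 in place of 2 (adjusted p = 0.0901). Tgtp1 and Tgtp2 differed by 0.0015 (adjusted p = 0.986, exact permutation).

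**Figure D4:**
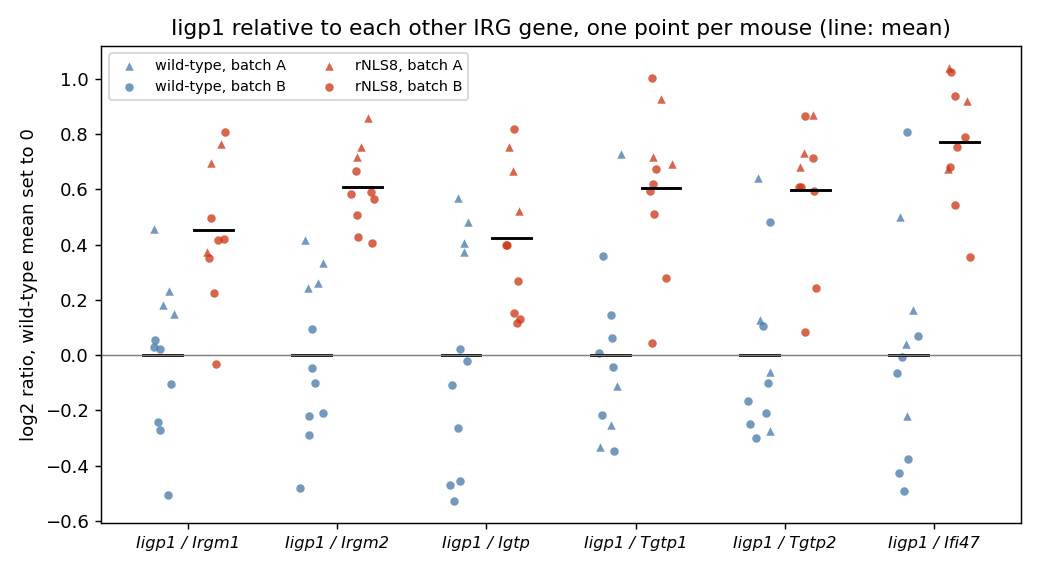
Log2 ratio of Iigp1 to each of the other 6 IRG genes in every mouse, set to 0 at the wild-type mean, with blue for wild-type, red for rNLS8, triangles for batch A, circles for batch B and black lines for means. The rNLS8 means lie above 0 for all 6 ratios, the highest for Iigp1 to Ifi47, while single mice of the genotypes overlap in all 6.

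Other genes of the IRG family and its relatives had a row for 11 of 16 listed symbols, of which 5 passed the filter on low counts. Gm12250, which codes for an IRG of the effector type, was higher with a log2 fold change of 1.74 (SE 0.21, edgeR adjusted p = 4.14e-07) and 3.09 to 11.3 against 13.4 to 41.6 normalized counts, without overlap. Gm4951 was higher by 2.19 (SE 0.24, edgeR adjusted p = 5.34e-08) on the log2 scale, with 3.13 to 14.9 normalized counts in wild-type and 13.7 to 104 in rNLS8 mice. Both are genes with few counts. 9930111J21Rik1 was higher by 0.47 (edgeR adjusted p = 0.000717) and 9930111J21Rik2 by 0.40 (edgeR adjusted p = 0.0237), and neither passed in batch A alone. Without rNLS8 replicate 8, 9930111J21Rik2 did not pass (0.30, edgeR adjusted p = 0.0869). Irgq, a relative named for its similarity to the IRG proteins, was the most abundant with 2977 ± 374 (SD) normalized counts over the 11 wild-type mice and 2449 ± 281 (SD) over the 10 rNLS8 mice. Irgq was lower with a log2 fold change of -0.27 (SE 0.053, edgeR adjusted p = 0.000222), and did not pass in batch A alone. The 6 genes below the filter had few counts, summed over the 11 wild-type and the 10 rNLS8 mice. Gm5431 had 39 and 160 counts, F830016B08Rik 36 and 165, Gm12185 36 and 68, Gm4841 12 and 42, Gm12187 0 and 2, and the testis gene Irgc1 35 and 14. Among these relatives, the promoters of Gm12250 and Gm12185 hold both motifs, 9930111J21Rik1 holds an ISRE core after its start, and those of 9930111J21Rik2, Gm5431 and Irgq hold neither.

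The pathway above the IRG genes was described by lists, each beside a median log2 fold change of -0.00067 over all genes tested. Of all genes tested, 23.0% were higher and 21.7% were lower. For interferon gamma itself, Ifng had 0 counts in wild-type and 2 counts in rNLS8 mice in all, so its level was not detectable at this depth. Of its receptor chains and kinases, 4 were tested, and Ifngr2 was higher by 0.78 (SE 0.046, edgeR adjusted p = 3.43e-12) and Ifngr1 by 0.31 (adjusted p = 4.12e-05), while Jak1 was lower (log2 fold change -0.14, adjusted p = 0.0126), but not without rNLS8 replicates 1, 8 and 9 (-0.09, adjusted p = 0.123). Of the transcription factors and feedback genes of this pathway, 4 of 8 tested were higher and 1 was lower, with a median of 0.21. Irf8 was higher by 0.70 (adjusted p = 1.66e-05) and Irf1, which itself induces IRG genes, by 0.35 (adjusted p = 0.00403), while the feedback inhibitor Socs3 was lower (log2 fold change -0.28, adjusted p = 0.0425). The call of Socs3 was lost when any of wild-type replicates 2, 3, 4, 6, 9 and 10 or rNLS8 replicates 3, 4, 7, 9 and 10 was left out, with an edgeR adjusted p of up to 0.0801. Nlrc5, the activator of MHC class I genes, was higher as well, by 2.01 (edgeR adjusted p = 3.96e-08).

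For type I interferon, Ifnb1 had 0 counts in wild-type and 1 count in rNLS8 mice, and Ifna2 and Ifna4 had 0 counts in all mice. Of the receptor chains and kinase tested, 1 of 3 passed, Ifnar2 with 0.26 (edgeR adjusted p = 0.000514). Of the 5 factors and feedback genes, 4 were higher with a median over the 5 of 1.84. Irf7, the amplifier of type I interferon, was higher by 3.21 (SE 0.20, edgeR adjusted p = 6.27e-12), the ISG15 protease Usp18 by 2.97, and Irf9 and Stat2, which take part in the ISRE-binding complex, by 1.84 and 0.65. Of 18 tested interferon-stimulated genes, all 18 were higher with a median of 2.67, among them Cxcl10 with 5.31, Ifi27l2a with 3.91, Isg15 with 3.17 and Oasl2 with 3.14. The members' fold changes of 1.0 to 1.80 were thus below the median of this list. The guanylate-binding proteins, large GTPases that act on the same vacuoles, were higher for 8 of 9 tested with a median of 1.22, among them Gbp10 with 3.06, Gbp6 with 2.93, Gbp3 with 2.12 and Gbp7 with 1.23.

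Genes known to bring IRG proteins to vacuoles were described as 2 lists. Of 11 genes of the ATG8 conjugation system, which marks membranes for the GKS effectors, 3 were higher and 3 were lower with a median log2 fold change of 0.0081. These counts are close to the share over all genes tested, of which 23.0% were higher and 21.7% were lower. Map1lc3b was higher by 0.32 (edgeR adjusted p = 2.68e-06) and Atg3 by 0.17 (adjusted p = 0.00379), while Atg10 (-0.28, adjusted p = 0.00261) and Atg12 (-0.16, adjusted p = 0.00401) were lower. The remaining calls, Atg7 and Atg16l1, were lost when rNLS8 replicate 8 or any of several other single mice was left out (without replicate 8, edgeR adjusted p = 0.0632 and 0.0591). Of 6 tested ubiquitin ligases and adaptors, 3 were higher and none was lower. The ligase Trim21, itself an interferon-induced gene, was higher by 1.11 (SE 0.14, edgeR adjusted p = 4.01e-07), Optn by 0.41 and Traf6 by 0.30.

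The genes whose pattern over the 10 rNLS8 mice was most like the mean of the members, by Pearson's r after removal of batch means and among 14572 candidates, included Gbp10 (0.983), Zfp438 (0.974), Gbp6 (0.973), Irf9 (0.971), Bst2 (0.970), Ifit1 (0.965) and Gbp3 (0.963). These values are descriptions of 10 mice that share the tissue and the sequencing, and the order of the genes depends on the measure. With batch means kept, Bst2, Irf9 and Gbp6 ranked 1, 2 and 8 of the candidates, whereas Gbp3 ranked 11, Gbp10 39, Ifit1 49 and Zfp438 59. By Spearman's rho, Irf9 ranked 28 and Ifit1 19. Of the 7 genes named, all but Zfp438 were higher in rNLS8 mice, and Zfp438, a zinc finger gene, had a log2 fold change of 0.06 (edgeR adjusted p = 0.614).

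Markers of cell types moved with the genotype as well, and their part in the change of the members was not tested. The counts below stand beside 23.0% higher and 21.7% lower over all genes tested. Of 12 microglia markers, 8 were higher and 1 was lower, with a summed level of 464 to 542 CPM in wild-type and 505 to 795 CPM in rNLS8 mice. The complement genes C1qa, C1qb and C1qc and the receptor gene Trem2 were higher by 0.62, 0.57, 0.52 and 0.59 on the log2 scale, below the 1.0 to 1.80 of the members, while P2ry12 was lower (-0.35, adjusted p = 2.62e-05, edgeR). Of 7 tested markers of peripheral macrophages and monocytes, only Lyz2 was higher (0.59, adjusted p = 0.0187, edgeR), and without rNLS8 replicate 8, which had 1113 normalized counts of Lyz2, its log2 fold change was 0.26 (adjusted p = 0.0414). Plac8, which was not tested, had 16 counts in wild-type and 148 counts in rNLS8 mice. The list summed to 16.4 to 27.3 CPM in wild-type and 17.6 to 70.2 CPM in rNLS8 mice. The highest of these sums was that of replicate 8 and came mostly from Lyz2. For T and NK cells, which are sources of interferon gamma, the defining markers Cd3d, Cd3e, Cd3g, Cd8a, Cd8b1, Ncr1 and Klrb1c had at most 6 counts in any mouse. The 7 genes together had 33 counts in wild-type and 55 counts in rNLS8 mice. The whole list of 16 genes summed to 12.4 to 23.8 CPM in wild-type and 11.6 to 18.1 CPM in rNLS8 mice. Most counts of the list were those of Cd4, with 1860 in wild-type and 847 in rNLS8 mice, and of Trbc2, with 1614 and 1553. The sum is therefore not a level of the defining markers. Of the 4 tested genes of the list, Ccl5 was higher (4.83, adjusted p = 2.70e-10, edgeR) and Cd4 lower (-1.24, adjusted p = 0.00345). Of 8 astrocyte markers, Gfap was higher by 1.03 and 5 were lower, with 5071 to 6357 CPM in wild-type and 4512 to 5674 CPM in rNLS8 mice. Of 8 neuronal markers 6 were lower, with 9021 to 11366 CPM in wild-type and 6507 to 8139 CPM in rNLS8 mice, among them Snap25 (-0.75) and Camk2a (-0.65). The call of Gad2 (-0.32, edgeR adjusted p = 0.0413) was lost without rNLS8 replicate 8, which left 5. It was also lost when any of several other single mice of either genotype was left out. Of 7 endothelial markers 2 were lower, or 0 without rNLS8 replicates 1, 8 and 9, with 225 to 275 and 196 to 249 CPM, and of 7 oligodendrocyte markers none passed edgeR's test, with 4370 to 7348 and 4195 to 7454 CPM.

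In RefSeq for GRCm38.p6, 6 members lie on chromosome 11 in separate groups. Irgm1 spans 48865245 to 48871420, Tgtp1 48985329 to 48992246, Tgtp2 49057196 to 49064212 and Ifi47 49076587 to 49096987, whereas Igtp spans 58199556 to 58207592 and Irgm2 58214977 to 58222783. Iigp1 lies on chromosome 18 from 60373616 to 60392634. Within 50 kb of a member, 21 genes outside the IRG list had a row and 6 of them were tested, of which 4 were higher and 2 were lower. Over all genes tested, 23.0% were higher and 21.7% were lower. Trim7 was higher by 0.62 (edgeR adjusted p = 0.000412), Mrpl22 by 0.45, the proteasome activator copy Psme2b by 0.34 and Gemin5 by 0.20, while Gm12184 (-0.54) and Trim41 (-0.12) were lower. Each of these changes was smaller than that of any member.

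Shared sequence limits how far some members can be told apart. In GENCODE vM21 transcripts, 70.3% of the stretches of 100 bases of Tgtp1 also occur in Tgtp2, and 76.8% of those of Tgtp2 occur in Tgtp1. The counts of Tgtp1 and Tgtp2 summed to 1843 and 1897 over all mice. Reads from the shared stretches cannot be assigned to either gene from their sequence, so the separate values of the 2 genes are uncertain. Summed, they had a log2 fold change of 1.16 (SE 0.13, edgeR adjusted p = 1.40e-07). Igtp and Irgm2 share 5.16% and 3.01% of their stretches, and a GENCODE transcript of Irgm2 reaches over Igtp, whereas Irgm1 and Iigp1 share none with another gene. The table also holds 11 further rows for members, written with a suffix such as Ifi47-2, and what they stand for is not given in the sources used here. Ifi47-2 had the same count as Ifi47 in 13 of 21 mice, Tgtp2-2 the same as Tgtp2 in 8 and Igtp-2 the same as Igtp in 3, while the other 8 rows were equal to the first row in 0 mice and summed to between 0.422% and 86.5% of it. Of the 11 rows, 8 were tested and all 8 were higher, and they are not counted here as further evidence.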

How the data were processed

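Neocortex RNA was sequenced from 11 wild-type and 10 rNLS8 mice, and genotype and batch were taken from the labels. According to the study's methods, RNA with high RIN values was sequenced at BGI and reads were aligned to GRCm38. The submitters' processing notes name HISAT, HISAT2, Bowtie2, RSEM, Bowtie and mm10, without versions. The values deposited by the authors are raw read counts by gene symbol. They were tested with edgeR 4.0.16 in R 4.3.3, with expression filtering by genotype (minimum count 10, minimum total 15), TMM, and the quasi-likelihood test with genotype and batch, two-sided. The SE of a log2 fold change is its size divided by the root of F. Log2 CPM used a prior count of 2. Totals of 20700912 to 22263809 counts per mouse limit the precision of genes with few counts, and counting errors cover sampling of reads only. The procedure was tested on simulated data. Alternatives were DESeq2 1.42.0, no batch term, other scalings and filters, no suffix rows, suffix rows summed, each batch alone and each mouse left out. Named genes were the 7 members, IRG relatives with a row, up to 4 genes per list with the largest absolute change among those called with a mean of at least 50 counts, Ifng, Ifnb1 and the 8 most alike genes. Nlrc5, Ifna2, Ifna4, P2ry12, Ccl5, Plac8, Atg7, Atg16l1, Gad2, the T and NK cell markers, Tardbp and the neighbouring genes were named after their values were seen. Members and lists were chosen with earlier results of these data known. Nothing says that the libraries are technical repeats, and each is labelled with its own mouse number. Some genes that this rule names are not reported here. Protein sequences were not used here.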

Additional observations from a re-analysis of the deposited data

Results flagged for a closer look

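Among the 10 rNLS8 mice, replicate 8 of batch A stood apart from the others for 2 members. For Irgm1, its gap to the next mouse was 0.517 of the range of the rNLS8 mice, with 870 against 532 normalized counts. For Ifi47, the gap was 0.485 of the range, with 107 against 71.6 normalized counts. Both exceed Dixon's 95% critical value on normalized counts. On the log2 scale, the gaps were 0.353 of the range for Irgm1 and 0.356 for Ifi47, and neither exceeds it. The 3 batch A and 7 batch B mice were searched together, without removal of batch means. The 7 members were searched, where chance gives 0.35 such cases, and both cases are the same mouse. Without replicate 8, the log2 fold change was 1.18 for Irgm1 and 0.88 for Ifi47.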

How the results depend on the processing

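All 7 members were higher in rNLS8 mice at an adjusted p under 0.05 in each of 33 alternatives, which were DESeq2, no batch term, other scalings and filters, the treatment of suffix rows, each batch alone, each mouse left out and the 3 rNLS8 mice left out together. Their largest adjusted p-values came from batch A alone, 0.0201 for Tgtp1 and 0.0196 for Ifi47. The number of all genes called, 8154, was 2195 in batch A alone, which has 7 mice, and between 7805 and 8363 with each mouse left out. The number of pairs of members that differed was 7, and 6 with a prior count of 0.5. The median r between members in rNLS8 mice was 0.750 without the 2 farthest mice of each pair and 0.923 with batch means kept. Among the members, Ifi47 had the fewest counts, and the interferon ligands could not be assessed at 0 to 2 counts. No paired analysis was possible because the labels give mouse numbers, which are not shared between the genotypes.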
